A study of Homo sapiens with 6 samples.

Results

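The genes described here are the 3 sestrins (SESN1, SESN2 and SESN3), the stress-induced inhibitor DDIT4, and genes that form or control the mTOR complexes (MTOR, RPTOR, RICTOR, DEPTOR, TSC1 and TSC2). The rule that picks their probes uses gene symbols and no measured value. The members themselves were chosen with earlier results of these data known. All 10 were found among the 18336 genes measured, on 11 probes that each name a single gene, out of 31741 probes in all. RICTOR has 2 of these probes and the other members have 1 each. None of them sits on a probe that names several genes.

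Total RNA from flasks of NCI-H446, an established line of human small cell lung cancer, was hybridised to Phalanx OneArray microarrays in a single colour, one array per flask. The drug group is 3 flasks (drug 1, 3 and 4) given a chemotherapy drug whose name, dose and duration the labels do not give. The control group is 3 flasks (control 2, 5 and 6) given 15 µl of DMSO, a common solvent. Cells of both groups were treated when they covered 80% of the flask, and whether the drug flasks received the same volume of solvent is not stated. The source names give other cell line numbers for 2 of the drug flasks, whereas the cell line field gives NCI-H446 for all 6. Which of these labels is right was not tested. By the cell line field the flasks are separate cultures of a single line. The p-values then rest on the spread between flasks and not between donors or lines.

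mTORC1 is a protein kinase complex that promotes translation and cell growth and restrains autophagy when amino acids, energy and growth factors are sufficient. MTOR is its catalytic subunit and RPTOR recruits its substrates, while RICTOR defines the second complex, mTORC2. Amino acids act on it through the Rag GTPases at the lysosome, a branch that sestrins restrain by binding the GATOR2 complex. Growth factors, energy stress and DDIT4 act through the TSC1–TSC2 complex, which switches off the small GTPase Rheb. The sestrins are themselves stress-inducible genes, and FOXO factors are known inducers of SESN3.

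Each value below is log2(intensity + 1) after quantile normalization between arrays, and each change is the drug mean minus the control mean on that scale. A gene was called higher or lower at an adjusted p below 0.05 in limma, with Benjamini-Hochberg adjustment over all 31741 probes. Over all genes 35.1% were called, 17.6% higher and 17.5% lower in drug flasks. Of the 10 members, 4 were called (40%), which is near that background. SESN3 and DEPTOR were higher, and SESN1 and RPTOR were lower. The members' changes had a median of 0.21, beside 0.008 over all genes, and ran from -1.38 to 3.49.

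**Figure D1:**
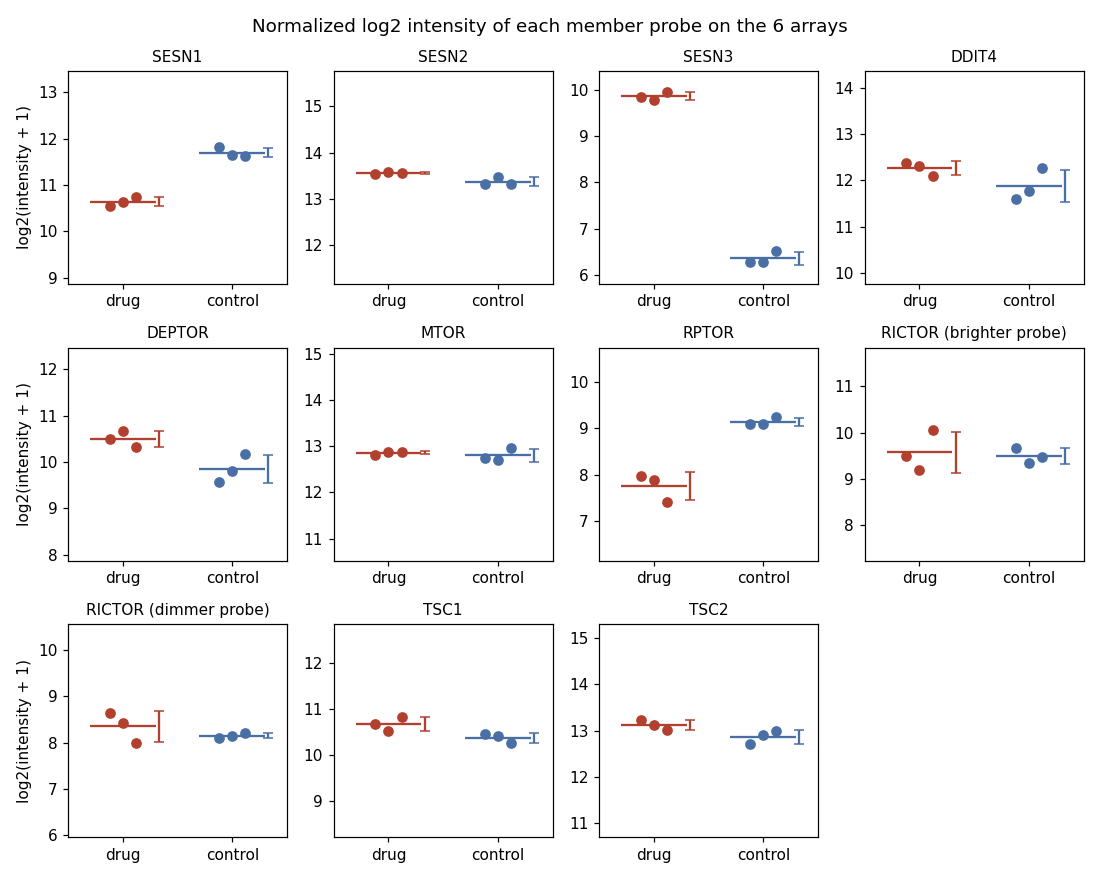
Normalized log2(intensity + 1) of each of the 11 member probes on the 3 drug and 3 control arrays. Points are arrays, horizontal lines are group means, vertical bars are 1 SD, and every panel spans the same range; the drug points of SESN3 lie far above its control points, and those of SESN1 and RPTOR lie below theirs.

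The stretches of DNA around the starts of SESN3, SESN2, SESN1 and RPTOR are shown because the sestrins moved in different ways and RPTOR had the largest fall of the members. Each runs 5′ to 3′ on the gene's own strand, from 250 bases before the annotated start to 50 bases after it, and comes from RefSeq on GRCh38.p14. Capitals mark matches, on either strand, to a GC box (GGGCGG) or a CCAAT box (CCAAT), which are common elements of promoters. The positions are chr11:95232426-95232725 (minus strand) for SESN3, chr1:28259268-28259567 (plus strand) for SESN2, chr6:109094797-109095096 (minus strand) for SESN1 and chr17:80544588-80544887 (plus strand) for RPTOR.
SESN3: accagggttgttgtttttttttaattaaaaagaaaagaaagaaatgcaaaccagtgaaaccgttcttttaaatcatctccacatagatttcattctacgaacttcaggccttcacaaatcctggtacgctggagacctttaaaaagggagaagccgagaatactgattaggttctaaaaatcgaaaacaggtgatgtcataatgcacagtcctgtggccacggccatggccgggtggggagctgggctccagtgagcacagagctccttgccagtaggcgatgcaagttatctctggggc
SESN2: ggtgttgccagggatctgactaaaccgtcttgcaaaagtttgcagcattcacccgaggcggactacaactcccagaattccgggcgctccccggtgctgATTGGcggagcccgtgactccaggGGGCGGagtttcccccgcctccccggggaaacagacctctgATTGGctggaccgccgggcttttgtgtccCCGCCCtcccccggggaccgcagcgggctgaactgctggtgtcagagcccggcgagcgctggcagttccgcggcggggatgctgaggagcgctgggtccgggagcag
SESN1: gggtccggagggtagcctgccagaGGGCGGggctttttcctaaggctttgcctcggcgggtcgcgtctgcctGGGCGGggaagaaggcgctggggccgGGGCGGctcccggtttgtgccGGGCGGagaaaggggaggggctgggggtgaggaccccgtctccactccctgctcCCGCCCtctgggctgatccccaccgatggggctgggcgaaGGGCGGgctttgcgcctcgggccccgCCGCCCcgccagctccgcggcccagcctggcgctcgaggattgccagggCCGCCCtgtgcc
RPTOR: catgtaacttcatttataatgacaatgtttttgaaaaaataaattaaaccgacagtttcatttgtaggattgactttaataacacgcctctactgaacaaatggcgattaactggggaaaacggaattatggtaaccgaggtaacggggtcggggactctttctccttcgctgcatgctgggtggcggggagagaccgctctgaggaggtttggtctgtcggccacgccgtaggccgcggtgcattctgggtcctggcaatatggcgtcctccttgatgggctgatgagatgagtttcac

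The gene bodies of the members without a sequence here lie, on the same assembly, at chr10:72273924-72276036 (DDIT4), chr1:11106535-11262551 (MTOR), chr5:38937920-39074399 (RICTOR), chr9:132891349-132945378 (TSC1) and chr16:2047985-2089491 (TSC2), besides DEPTOR. SESN3 and RPTOR had the lowest GC content among the 12 promoter entries used, which cover 9 of the members and leave out DEPTOR. These genes, with the largest rise and the largest fall, moved in opposite directions and were picked for display with their changes known. Whether promoter sequence goes with the size of a change was not tested. The GC content was 45% for SESN3 and 48% for RPTOR, and 20.6% and 26.6% of all 35116 promoters of this length lie below these values. The median of all promoters is 58.7%, and the other member entries ran from 58% to 75%. Neither the SESN3 nor the RPTOR stretch holds a GC box or a CCAAT box, which occur in 45% and 34.6% of all promoters. The SESN2 stretch holds both. The SESN1 stretch shown holds 8 GC boxes and no CCAAT box, and it is 1 of 3 annotated starts of SESN1, between which the array probe cannot be assumed to distinguish.

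Elements of stress-responsive factors were searched in the same stretches, on both strands. The FOXO site GTAAACA, present in 3.42% of all promoters, and the core TGACGT of cyclic AMP response elements, present in 7.98%, matched in none of the 12 entries. The ATF4 composite element TGATGNAA, present in 3.62% of all promoters, matched in 1 of the TSC2 entries at position -110 from the start. It overlaps there with the E-box CACGTG at -114, a sequence bound by TFEB and its relatives and present in 7.26% of all promoters. The hypoxia response core ACGTG, which is part of that E-box and occurs in 21.4% of all promoters, also matched in DDIT4 at -125 and in RICTOR at -206. A match of letters is a description of the sequence and not evidence of binding.

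The sestrins had 3 different outcomes. SESN3 had values of 9.84, 9.78 and 9.95 in drug flasks 1, 3 and 4, against 6.28, 6.28 and 6.53 in control flasks 2, 5 and 6. The deposited intensities behind these were 896, 854 and 1064 in the drug flasks, against 60.4, 48.0 and 100 in the control flasks. The groups are far apart, and the control mean lies below the lower quartile of all intensities, 6.86, and such a mean is called dim here. SESN3 rose by 3.49 (SE 0.127, 95% confidence interval 3.19 to 3.79, limma adjusted p = 1.32e-05), an 11.3-fold difference. The fold was 7.43 with 50 added to the intensities in place of 1, since a dim level depends on the constant added. Control 2 and control 5, with the lowest SESN3 intensities, held 462 and 968 deposited values below 0 over all probes, while control 6 held 0. How far this low-end difference enters the fold was not tested.

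SESN1, a sestrin first known as a p53 target, went the other way. It had values of 10.54, 10.63 and 10.74 in drug flasks 1, 3 and 4, against 11.81, 11.64 and 11.63 in control flasks 2, 5 and 6. Every drug value lies below every control value, and the groups are about 1 unit apart. SESN1 fell by 1.06 on the log2 scale (SE 0.121, limma adjusted p = 0.000592), which is 2.08-fold lower in drug flasks.

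SESN2, the sestrin known as a leucine sensor and as a target of ATF4 and NRF2, had values of 13.54, 13.58 and 13.56 in drug flasks, against 13.32, 13.48 and 13.33 in control flasks. The drug values lie above the control values by a narrow margin. The change was 0.18 (95% confidence interval -0.08 to 0.45, limma adjusted p = 0.289), so a rise of more than 0.45 or a fall of more than 0.08 lies outside the interval.

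Whether the 3 sestrins moved by different amounts was tested on the difference between their log2 values within each array. SESN3 minus SESN1 was -0.86 to -0.70 in drug flasks, against -5.53 to -5.11 in control flasks, a difference between the changes of 4.55 (SE 0.131). SESN3 minus SESN2 was -3.80 to -3.62 in drug flasks, against -7.20 to -6.81 in control flasks, a difference of 3.31 (SE 0.127). SESN2 minus SESN1 was 2.83 to 3.00 in drug flasks, against 1.51 to 1.84 in control flasks, a difference of 1.24 (SE 0.107). In all 3 pairs the groups do not overlap, and each reached the smallest p that an exact two-sided permutation test of 3 against 3 arrays can give, which is 0.1 (0.1 also after adjustment over the 3 pairs). Such a design cannot pass 0.05.

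DDIT4, also known as REDD1, inhibits mTORC1 under hypoxia, glucocorticoids and other stress. It had values of 12.38, 12.31 and 12.09 in drug flasks 1, 3 and 4, against 11.61, 11.76 and 12.26 in control flasks 2, 5 and 6. Control 6 lies inside the range of the drug flasks, so the groups overlap. The change of 0.38 (95% confidence interval -0.07 to 0.84) did not pass, with a limma adjusted p of 0.198. Without control 6 it was 0.57 and passed (limma adjusted p = 0.0298). It also passed on all 6 arrays with array weights (0.51, limma adjusted p = 0.0249), so the call depends on control 6 and on the weighting. DDIT4L, the related gene REDD2, averaged 9.21 ± 0.195 in drug flasks and 7.66 ± 0.165 in control flasks (SD, n = 3 each) and rose by 1.56 (limma adjusted p = 0.000304).

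Of the subunits of the mTOR complexes, the substrate adaptor RPTOR was lower. It had values of 7.96, 7.88 and 7.41 in drug flasks 1, 3 and 4, against 9.08, 9.08 and 9.23 in control flasks 2, 5 and 6. The groups are separated by more than their spread, and drug 4 is the lowest array. RPTOR fell by 1.38 on the log2 scale (SE 0.171, 95% confidence interval -1.79 to -0.98, limma adjusted p = 0.000835), which is 2.61-fold lower in drug flasks.

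The kinase MTOR had values of 12.82, 12.87 and 12.87 in drug flasks, against 12.75, 12.70 and 12.96 in control flasks. The groups overlap, with a change of 0.05 (95% confidence interval -0.24 to 0.34, limma adjusted p = 0.826). That sign turns to -0.03 with the values as deposited and to -0.17 with the arrays scaled to a common median.

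RICTOR, the defining subunit of mTORC2, was read on 2 probes, and the groups overlap on both. The brighter probe had 9.50, 9.19 and 10.06 in drug flasks 1, 3 and 4, against 9.68, 9.34 and 9.47 in control flasks, and its change was 0.09 (95% confidence interval -0.46 to 0.63). Drug 4 is the highest array on this probe, and without it the change was -0.16. On the dimmer probe drug 4 is the lowest array instead, with 8.64, 8.43 and 7.99 in drug flasks 1, 3 and 4, against 8.10, 8.14 and 8.21 in control flasks. The change there was 0.20 (95% confidence interval -0.22 to 0.62), and the limma adjusted p-values were 0.842 and 0.486.

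DEPTOR binds MTOR and inhibits both complexes. It had values of 10.49, 10.67 and 10.31 in drug flasks 1, 3 and 4, against 9.58, 9.80 and 10.17 in control flasks 2, 5 and 6. The groups do not overlap, but the gap between drug 4 and control 6 is small. DEPTOR rose by 0.64 (SE 0.183, 95% confidence interval 0.21 to 1.07, limma adjusted p = 0.0338), a 1.56-fold difference. The call did not hold without control 2 (0.50, adjusted p = 0.0868), control 5 (0.61, adjusted p = 0.0857), drug 1 (0.64, adjusted p = 0.0972) or drug 3 (0.55, adjusted p = 0.124) in limma.

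TSC1 and TSC2 form the complex that inactivates Rheb. TSC1 had values of 10.66, 10.53 and 10.83 in drug flasks, against 10.45, 10.41 and 10.26 in control flasks. TSC2 had values of 13.23, 13.12 and 13.01 in drug flasks, against 12.71, 12.91 and 13.00 in control flasks. Both were higher in every drug flask than in any control flask, by small margins. Neither passed, with changes of 0.30 (95% confidence interval -0.01 to 0.61, limma adjusted p = 0.138) for TSC1 and 0.25 (-0.06 to 0.56, adjusted p = 0.226) for TSC2.

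**Figure D2:**
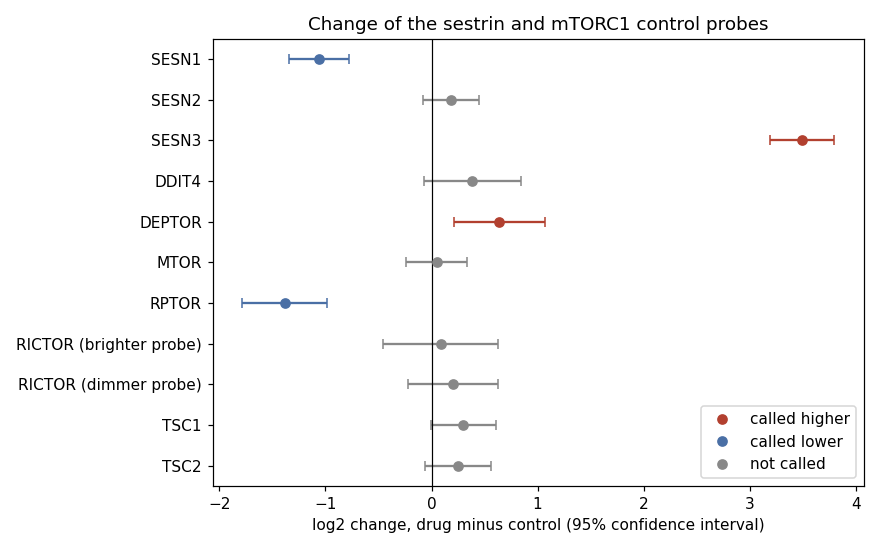
Change of each member probe, drug minus control, on the log2(intensity + 1) scale, with the 95% confidence interval from limma (3 arrays per group). SESN3 stands at 3.49, DEPTOR at 0.64, SESN1 at -1.06 and RPTOR at -1.38; the intervals of the other 7 probes include 0.

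Drug and control arrays did not overlap for 7 of the 10 members, 5 of them higher and 2 lower in drug flasks, where 47.0% of all genes did not overlap (23.8% higher and 23.3% lower). SESN3, SESN1, RPTOR and DEPTOR kept this separation under all 4 scalings of the arrays. SESN2 had it only under quantile normalization, TSC1 also with a common 75th percentile, and TSC2 also with the values as deposited. MTOR, whose groups overlap as reported, lay lower in every drug flask than in any control flask with a common median. The members without overlap numbered 5 under each of the other 3 scalings.

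The wider pathway was described with 9 lists of genes, whose 94 measured genes outside the members had 22 called higher and 24 called lower (48.9%, beside 35.1% over all genes). Their median change was 0.13. Only 2 of the 94 were dim in drug flasks, beside 3485 of the 18336 genes, so the lists hold fewer dim genes than the array as a whole. The named genes are those with the largest called changes in each list, up to 3 per list.

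Besides RPTOR, several partners of MTOR were lower. Of the 12 measured mTOR complex subunits and chaperones, 1 was called higher, DEPTOR, and 5 lower, with a list median of -0.07. MLST8, the small subunit shared by both complexes, averaged 11.78 ± 0.146 in drug flasks and 13.08 ± 0.233 in control flasks (SD, n = 3 each). It fell by 1.30 on the log2 scale on that probe and by 1.12 on its other probe. AKT1S1, the mTORC1 inhibitor PRAS40, averaged 10.46 ± 0.0652 in drug flasks and 11.69 ± 0.105 in control flasks and fell by 1.22. PRR5L, an mTORC2 partner, averaged 5.97 ± 0.216 in drug flasks, where it was dim, and 7.38 ± 0.146 in control flasks and fell by 1.42. Limma adjusted p-values were 0.000789 for MLST8, 0.000286 for AKT1S1 and 0.000473 for PRR5L.

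The amino acid branch had calls in both directions. Of 10 measured GATOR1, GATOR2 and KICSTOR genes, 1 was called higher and 4 lower, with a median of -0.06. The GATOR1 subunits NPRL2 and NPRL3, which sit in the same inhibitory complex, were called in opposite directions. NPRL2 averaged 10.75 ± 0.139 in drug flasks and 9.33 ± 0.0497 in control flasks (SD, n = 3 each) and rose by 1.42 (limma adjusted p = 0.000182). NPRL3 averaged 9.27 ± 0.340 in drug flasks and 10.88 ± 0.168 in control flasks and fell by 1.61 (limma adjusted p = 0.000764). ITFG2, a KICSTOR subunit, fell by 0.87 (limma adjusted p = 0.0219) and by 1.60 on its other probe. The call on its brighter probe was lost in 5 of 17 alternatives, among them without control 2, control 5, drug 3 or drug 4 (adjusted p 0.0607, 0.0619, 0.0648 and 0.0733).

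Of 13 measured genes of the Rag GTPases, Ragulator and lysosomal sensing, 3 were called higher and 2 lower, with a median of 0.04. RRAGD, a Rag GTPase, rose by 0.97 (limma adjusted p = 0.00974), and by 0.53 on its other probe, which was dim. CASTOR1, the cytosolic arginine sensor, which the array lists under an older symbol, rose by 0.96 (limma adjusted p = 0.0017). RRAGB fell by 0.98 (limma adjusted p = 0.0032), while its other probe did not pass at 0.10.

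Around Rheb, 2 of the 5 measured genes of the TSC complex and Rheb list were called higher and 0 lower, with a median of 0.30. TBC1D7, the third subunit of the TSC complex, averaged 12.54 ± 0.135 in drug flasks and 11.03 ± 0.180 in control flasks (SD, n = 3 each). It rose by 1.51 (limma adjusted p = 0.000269) and by 1.50 on its other probe, beside the smaller changes of TSC1 and TSC2 that did not pass. RHEBL1, a Rheb relative, rose by 0.52 (limma adjusted p = 0.0318), a call that was lost in 5 of 17 alternatives, among them without control 2, control 5, drug 1 or drug 3 (adjusted p 0.0818, 0.0642, 0.120 and 0.110).

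Of the 13 AMPK and LKB1 genes, which sense low energy, 1 was called higher and 3 lower, with a median of -0.01. PRKAA2, a catalytic subunit of AMPK, rose by 0.96 (limma adjusted p = 0.00188) and by 1.13 on its other probe, and it was dim in control flasks on both. CAMKK2, a kinase that activates AMPK, fell by 1.15 (limma adjusted p = 0.00176) and by 1.27 on another probe, while its remaining probe did not pass at -0.53. PRKAG2, a regulatory subunit, fell by 0.59 (limma adjusted p = 0.0413) and by 0.66 on its other probe. The call on its brighter probe was lost in 7 of 17 alternatives, among them without control 2, control 5, control 6, drug 1 or drug 3 (adjusted p from 0.0613 to 0.147).

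Of 15 measured genes of PI3K and AKT signalling, 6 were called higher and 3 lower, with a median of 0.42. PIK3R3, a regulatory subunit of PI3K, averaged 11.04 ± 0.114 in drug flasks and 8.89 ± 0.215 in control flasks (SD, n = 3 each) and rose by 2.15 (limma adjusted p = 7.55e-05), and by 0.59 on its other probe. PDPK1, the kinase that activates AKT, rose by 1.56 (limma adjusted p = 0.000111), and by 1.25 and 0.68 on its other probes. PIK3CA, a catalytic subunit of PI3K, fell by 1.15 (limma adjusted p = 0.00786).

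Of 19 mTORC1 substrates and translation outputs, 4 were called higher and 5 lower, with a median of -0.07. LPIN1, a phosphatidate phosphatase and mTORC1 substrate, rose by 1.41 (limma adjusted p = 0.000217) and by 1.23 on its other probe. EIF4EBP2, a repressor of cap-dependent translation that mTORC1 inactivates, averaged 13.65 ± 0.0633 in drug flasks and 12.35 ± 0.205 in control flasks (SD, n = 3 each). It rose by 1.31 (limma adjusted p = 0.000442) and by 0.81 on its other probe. ULK1, the kinase that starts autophagy, rose by 1.13 (limma adjusted p = 0.00238). These are transcript levels, and the activity of the kinase complexes was not measured.

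Of 12 measured factors known to induce sestrins or DDIT4, 4 were called higher and 3 lower, with a median of 0.17. FOXO1, a known inducer of SESN3, had values of 10.20, 10.43 and 10.29 in drug flasks, against 7.78, 7.97 and 8.19 in control flasks. The groups are far apart, and FOXO1 rose by 2.33 (SE 0.147, limma adjusted p = 5.35e-05), a 5.02-fold difference. NR3C1, the glucocorticoid receptor and an inducer of DDIT4, fell by 1.40 (limma adjusted p = 0.000748), and by 1.55 and 1.45 on its other probes. NFE2L2, the oxidative stress factor NRF2 and an inducer of SESN2, fell by 1.02 (limma adjusted p = 0.000809) and by 1.04 on its other probe.

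**Figure D3:**
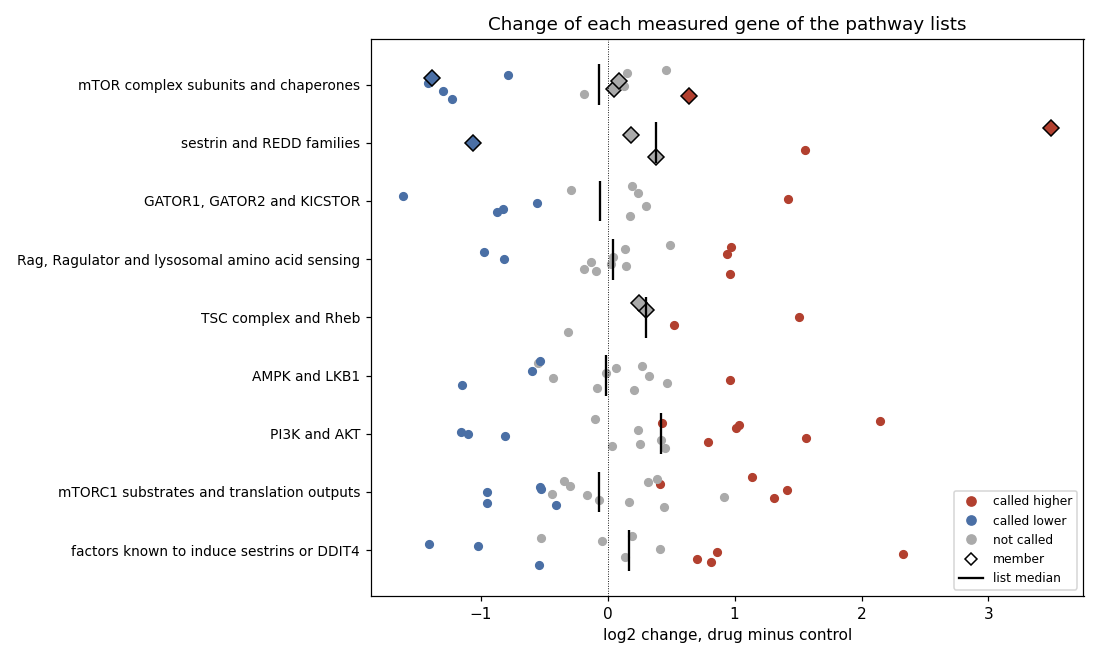
Change of each measured gene of the 9 pathway lists, drug minus control, on the log2(intensity + 1) scale, each gene at its brightest probe. Diamonds are the members, vertical bars are list medians, and colours give the limma call; SESN3 at 3.49 lies to the right of every other gene shown, and FOXO1 at 2.33 and PIK3R3 at 2.15 come next.

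Replicate arrays correlated at 0.978 to 0.990 over all probes within a group and drug with control arrays at 0.948 to 0.958. Of 9 measured neuroendocrine markers, 4 were called higher (44.4%, beside 35.1% over all genes) and 1 was dim in both groups. The called ones were NCAM1 (5.08), SYT1 (1.69), ENO2 (1.09) and SYP (1.06). The summed intensity of the 9 was 114433 to 120741 in drug flasks, against 82948 to 92493 in control flasks. Most of that sum is UCHL1, which averaged 16.53 in drug flasks and 16.26 in control flasks and was not called. Of 7 markers of non-neuroendocrine small cell lung cancer, 2 were called lower (28.6%), YAP1 (-2.48) and AXL (-1.55). Their list had sums of 158952 to 185686 in drug flasks, against 182891 to 235112 in control flasks. Most of those sums is VIM, which averaged 17.11 in drug flasks and 17.18 in control flasks and was not called. Markers of fibroblasts or endothelium summed to 7567 to 8786 in drug flasks, against 28660 to 33204 in control flasks, with 1 of 7 called, lower (14.3%). That one is the collagen gene COL1A1, which averaged 12.69 in drug flasks and 14.81 in control flasks, while the other 6 changed by -0.28 to 0.25 and did not pass. Markers of blood cells summed to 6209 to 7005 in drug flasks, against 3426 to 3839 in control flasks. Of these, 2 of 6 were called, higher (33.3%, beside 35.1% over all genes), which are HBA1 (1.77) and CD14 (0.76). HBB (0.19), CD68 (0.16), CD3E (0.10) and PTPRC (-0.34) did not pass. COL1A1, HBA1 and CD14 were singled out after their values were seen. No marker was at 0, 2 of each of the last 2 lists were dim in both groups, and the part of these shifts in the members' changes was not tested. In RNA from whole flasks, fewer cells of a kind and less RNA per cell cannot be told apart.

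**Figure D4:**
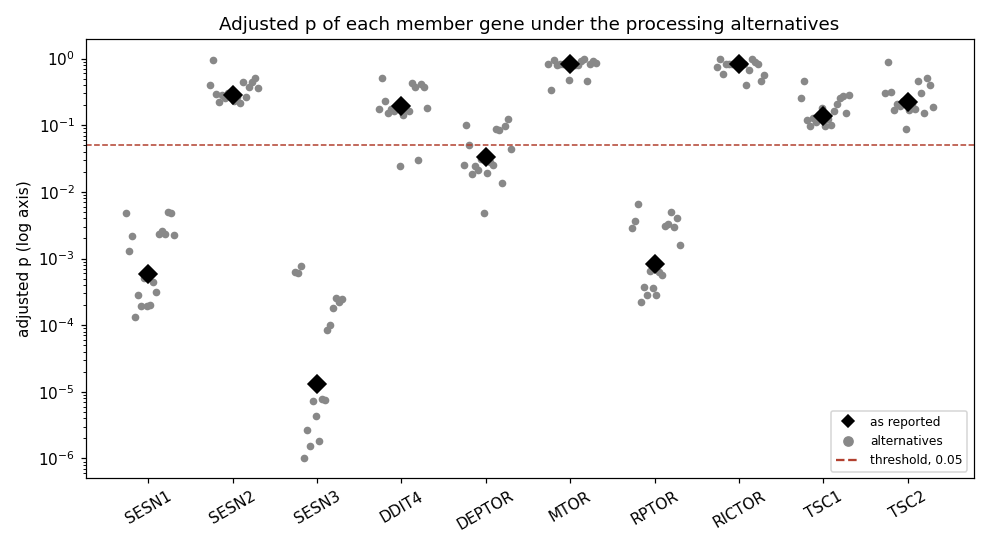
Adjusted p of each member gene at its brightest probe, on a log axis, as reported (diamond) and under 17 alternatives (points), with the threshold of 0.05 as a dashed line. SESN1, SESN3 and RPTOR stay below the line throughout, DEPTOR lies on both sides, DDIT4 crosses it under 2 alternatives, and the other 5 members stay above it.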

How the data were processed

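RNA of the 6 flasks was amplified, labelled with Cy5 and hybridised to Phalanx OneArray microarrays, per the labels' protocols. The deposited values are linear intensities, and the authors' background correction and scaling are not stated there. Groups came from the sample titles. Median intensities of the arrays spanned 0.338 (log2), so intensities were quantile normalized, values below 0 were set to 0, 1 was added and log2 taken. Deposited values below 0 numbered 462 in control 2, 968 in control 5 and 1 in drug 4, and 0 in control 6, drug 1 and drug 3. The low end of the intensities thus differs between arrays and partly with the group, and its effect on dim values was not tested. The comparison of drug with control used lmFit and eBayes of limma 3.58.1 under R 4.3.3 (two-sided, no covariate), with Benjamini-Hochberg adjustment over 31741 probes and a threshold of 0.05. The median SD within groups was 0.196 (log2), and 3 arrays per group limit the precision.

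Probes were named from the platform annotation in GEO, and 977 probes naming several genes were left out. In the pathway lists 2 symbols were updated through RefSeq synonyms (GRCh38.p14). Where a gene has several probes, the brightest over all arrays stands for it. The genes named are the members and, from each pathway list, up to 3 called genes outside the members with the largest absolute change. The members and lists were chosen with earlier results of these data known. The fit was tested on simulated data with independent noise and far fewer changed probes than were called here. That simulation left out the normalization step and array differences, so it cannot check them. Alternatives covered scaling, the added constant, variance moderation, array weights, dim probes, the probes adjusted over, the mean of a gene's probes and leaving out each array. No slide or scan date was used here, so batches were not tested.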

Additional observations from a re-analysis of the deposited data

How the results depend on the processing

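Over 17 alternatives, 6 of which left out 1 array, SESN3 (2.89 to 3.84), SESN1 (-1.22 to -1.001) and RPTOR (-1.50 to -1.21) kept their direction and their call. The number of member genes called lower was 2 throughout. The number called higher was 2 as reported and 1 with a common median or a common 75th percentile, since DEPTOR was lost (0.52, adjusted p = 0.102, and 0.69, adjusted p = 0.0512), and it ranged from 1 to 3 when 1 array was left out. It was 3 with array weights and without control 6, where DDIT4 passed beside SESN3 and DEPTOR. DDIT4 stood at 0.51 with array weights (adjusted p = 0.0249), within a range of its changes from 0.20 to 0.57. MTOR changed sign with the values as deposited (-0.034) and with a common median (-0.17), and leaving out 1 array gave from -0.0031 to 0.13. RICTOR changed sign on its brighter probe with array weights (-0.042), and leaving out 1 array gave from -0.16 to 0.29. PIK3CA lost its call on unscaled arrays (adjusted p = 0.0807) and at a common 75th percentile (0.0682). The counts of the other pathway genes stayed within 1.5 times those reported. The median change of all probes was 0.23 as deposited, 0.10 with a common median and 0.27 with a common 75th percentile. Relative to that shift, SESN3 stood at 3.57, DEPTOR at 0.42, SESN1 at -1.32 and RPTOR at -1.48, while SESN2 (-0.09), TSC2 (-0.07), MTOR (-0.27) and RICTOR (-0.10) lay below 0. These relative values are nearly the same under the 3 scalings by construction, since the scalings differ by 1 factor per array. No paired analysis was possible because the drug and control flasks share no replicate numbers. The causes of these shifts were not tested.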
